A study of Homo sapiens with 12 samples.

Results

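The control (naïve) population of SNU449-Axl- cells was set against the other populations of the study. SNU449 is an established hepatocellular carcinoma (HCC) cell line with a mesenchymal-like phenotype, and the SNU449-Axl- cells derived from it carry a knockout of the receptor tyrosine kinase gene AXL. The 12 libraries were prepared with QuantSeq, which sequences the 3′ ends of mRNAs, in 4 groups of 3: SNU449 control, Rego-resistant SNU449, SNU449-Axl- control and Rego-resistant SNU449-Axl- cells. Both control groups are labelled naïve, and both resistant groups had been exposed to rising concentrations of Regorafenib (Rego), an inhibitor of several kinases, up to 2 times the IC50. The triplicates are described as technical, so every group stands for 1 population of cells, and each p-value here measures the spread between libraries and not between independently derived lines. The knockout was made by genome editing with CRISPR/Cas9, and whether the SNU449-Axl- cells are a clone is not given in the sources used here. A gene was called private to the SNU449-Axl- control cells when its 3 libraries all lay above, or all below, each of the 9 other libraries. Of 15601 genes, 966 were private: 512 were higher (3.28%) and 454 were lower (2.91%).

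Axl is a receptor of the TAM family, together with Tyro3 and MerTK, and is activated by the ligand Gas6. In HCC cells Axl is known for its links with epithelial to mesenchymal transition (EMT), invasion and response to kinase inhibitors. SNU449-Axl- control cells share the knockout with the resistant SNU449-Axl- cells and the absence of Rego selection with the SNU449 control cells, so their private genes follow neither of these properties alone.

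The expression values are the authors' library values, a batch-corrected and variance-stabilised expression score returned to a linear scale, which compresses low levels: the lowest value in any library was 12 to 18, and values near 20 stand for genes with almost no reads. Differences are given as log2(value + 1), which therefore understates the change of low genes. Mean normalised counts per group were solved from the authors' means over 7 sets of libraries. They are given for some genes as an estimate whose error is not known. The number of reads per library is not given in these values, so the depth is unknown. Median values of all genes were close between libraries (6.29 to 6.36 on the log2 scale), whereas the median of the spike-in RNAs was 5.39 to 5.61 in SNU449-Axl- control, 5.28 to 5.42 in resistant SNU449-Axl-, 5.54 to 5.70 in SNU449 control and 5.56 to 5.74 in resistant SNU449 cells. All 7 mesenchymal markers had a mean normalised count of at least 50 over the 12 libraries. Their summed solved counts were 24516 in SNU449-Axl- control cells and 20773 to 23352 in the other groups. Most of this sum was VIM, with a mean normalised count of 18945. The differences from the other groups were above 0 for VIM (0.23), CDH2 (0.33) and TWIST1 (0.22). They were below 0 for FN1 (-1.57), ZEB1 (-0.29), SPARC (-0.26) and S100A4 (-0.25), and only FN1 was called, as lower in the population. Of 8 epithelial markers 1 was listed, and of 10 hepatocyte markers 4 were listed, with albumin and HNF4A absent from the table. Of 8 haematopoietic markers 2 were listed, with summed counts of 8.93 in SNU449-Axl- control cells and 1.66 to 7.64 in the other groups, and none of the 7 endothelial markers was.

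AXL (chromosome 19, 41219223 to 41261766, GRCh38) had values of 35, 53 and 33 in SNU449-Axl- control cells, 50, 38 and 52 in resistant SNU449-Axl- cells, 727, 941 and 715 in SNU449 control cells and 1237, 815 and 1271 in resistant SNU449 cells. Both SNU449-Axl- populations lay far below both SNU449 populations and overlapped with each other, as their labels state. AXL was thus not private to the control population. The difference from the mean of the other groups was -3.09 ± 0.192 (SE, n = 3 against 9, limma adjusted p = 5.59e-08), and that from resistant SNU449-Axl- cells was -0.22 ± 0.235 (adjusted p = 0.67). No other TAM receptor or ligand passed the test. GAS6 values were 125, 163 and 117 in SNU449-Axl- control cells and 60 to 151 in the others (difference 0.47 ± 0.182, adjusted p = 0.142). TYRO3 differed by -0.03 ± 0.166, MERTK by 0.09 ± 0.141 and PROS1 by 0.05 ± 0.17. The sign of TYRO3 turned under centring on the spike-in RNAs, and those of TYRO3 and PROS1 turned when single libraries were left out.

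The ligands epiregulin (EREG) and amphiregulin (AREG) were among the private genes with the widest separation. Both are made as membrane-anchored precursors, released by proteases, and activate the epidermal growth factor receptor (EGFR). Their genes are neighbours on chromosome 4, EREG at 74365145 to 74388749 and AREG at 74445136 to 74455005 on the plus strand of GRCh38. The 250 bases before the start of each gene are given because the transcripts moved together, followed by those of the private genes with the largest gap in each direction, PCDH9 and DSC3. They were taken from RefSeq (GRCh38.p14) and read 5′ to 3′ on the gene's strand. EREG lies at chr4:74364895-74365144, AREG at chr4:74444886-74445135, PCDH9 at chr13:67230337-67230586 on the minus strand and DSC3 at chr18:31042743-31042992 on the minus strand. The start is that of RefSeq. By the deposited positions PCDH9 reaches to 67230445 and DSC3 to 31042815, so part of each of these stretches lies within the gene. Capitals mark the TATA box motif TATAAA on either strand. They also mark the GC box motif, GGGCGG, on either strand.
EREG: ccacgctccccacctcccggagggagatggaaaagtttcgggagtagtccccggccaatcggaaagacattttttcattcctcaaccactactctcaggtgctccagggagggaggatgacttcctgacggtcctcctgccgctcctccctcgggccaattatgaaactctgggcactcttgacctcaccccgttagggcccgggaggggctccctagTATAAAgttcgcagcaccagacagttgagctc
AREG: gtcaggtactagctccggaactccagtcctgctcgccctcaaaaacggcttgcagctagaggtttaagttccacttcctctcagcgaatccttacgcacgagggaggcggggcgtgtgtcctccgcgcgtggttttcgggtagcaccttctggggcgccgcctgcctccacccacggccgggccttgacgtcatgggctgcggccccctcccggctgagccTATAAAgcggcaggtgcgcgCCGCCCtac
PCDH9: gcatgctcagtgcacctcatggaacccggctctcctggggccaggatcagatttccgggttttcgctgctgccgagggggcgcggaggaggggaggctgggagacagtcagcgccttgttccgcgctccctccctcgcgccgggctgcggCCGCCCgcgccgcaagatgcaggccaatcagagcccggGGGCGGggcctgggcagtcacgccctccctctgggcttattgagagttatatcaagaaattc
DSC3: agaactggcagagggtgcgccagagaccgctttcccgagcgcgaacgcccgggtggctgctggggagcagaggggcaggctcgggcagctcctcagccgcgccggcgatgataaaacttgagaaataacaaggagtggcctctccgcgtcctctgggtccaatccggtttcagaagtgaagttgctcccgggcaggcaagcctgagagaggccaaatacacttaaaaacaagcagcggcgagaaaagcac
In EREG a TATAAA motif began 32 bases before the start, and in AREG 29 bases before it. TATAAA stood in 5.56% of the 10802 tested genes with a promoter entry, in 4.65% of the 387 private higher genes with an entry and in 4.95% of the 364 private lower genes. GGGCGG stood in 67.3%, 69.5% and 68.4% of them in the same order. TGANTCA (AP-1 type) stood in 3.86%, 2.58% and 4.12%, CACGTG (E-box) in 8.78%, 11.1% and 10.4%, and neither was found in the 4 sequences. The median promoter of the private higher genes held 21 CpG, that of the private lower genes 22 and that of all these genes 21. EREG had 11 and AREG 23.

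EREG had values of 453, 279 and 526 in SNU449-Axl- control cells. In the other libraries it reached 54 to 138, so that the lowest library of the population was still above the highest of all others. The solved mean counts were 429 in SNU449-Axl- control cells and 60.4, 57.1 and 80.4 in SNU449 control, resistant SNU449 and resistant SNU449-Axl- cells, a ratio of 6.51 to the mean of these. AREG had values of 241, 140 and 180 in the population and 19 to 89 in the others. The nearest libraries were those of resistant SNU449-Axl- cells with 89, 83 and 49, and the ratio of the solved counts was 5.63. None of the receptors was private. EGFR values were 528, 643 and 690 in SNU449-Axl- control cells and 424 to 1024 elsewhere. ERBB3 (47, 44 and 43 against 33 to 57) and ERBB4 (35, 28 and 28 against 21 to 53) also overlapped with the other libraries. ERBB2 values were 92, 102 and 88 against 102 to 117. No library of the population lay above any other for ERBB2, which missed the rule by a tie at 102. Apart from EREG and AREG, which were chosen on this contrast, none of the 8 other tested ErbB receptors and ligands was called. No p-value is given for a private gene, since the rule had used the same contrast.

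The largest gap of all private genes was that of PCDH9 (chromosome 13, 66302834 to 67230445), a protocadherin of cell adhesion. Its values were 197, 207 and 676 in SNU449-Axl- control cells and 18 to 31 in all others, where it was almost without reads. The solved mean count was 385 in the population. It was solved as 22.5 in resistant SNU449-Axl- cells and as 0 in both SNU449 groups. The library values of resistant SNU449-Axl- cells were no higher than those of the SNU449 groups, at 29, 26 and 18. The solved counts of these low groups are therefore uncertain, and no difference between them is read from these counts. Replicate 3 lay well above the other two libraries. COL11A1, a fibrillar collagen gene on chromosome 1, had the same feature with values of 143, 91 and 475 against 16 to 43. In a bulk library a rise in every cell and a rise in some of the cells cannot be told apart. In 13 of the 512 private higher genes replicate 3 exceeded both other libraries by over 0.5 on the log2 scale, while replicate 1 did so in 4 and replicate 2 in 3. No such spread was present in WDR72, on chromosome 15, at 150, 128 and 138 against 24 to 53. NRK, an X-linked protein kinase gene, had values of 235, 250 and 245. The resistant SNU449-Axl- cells came closest to it at 131, 133 and 110, and the SNU449 populations ranged from 21 to 50, so that NRK was higher in both Axl-deficient populations and highest in the control cells.

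EPHA7, an ephrin receptor tyrosine kinase, had values of 60, 59 and 92 against 19 to 26. FAP, a serine protease typical of activated fibroblasts, had values of 57, 70 and 86 against 20 to 32. CCBE1, a secreted factor of lymphatic vessel growth, had values of 227, 318 and 304 against 28 to 110. EPHA7 and FAP were near the lowest measurable values in the other libraries, whereas CCBE1 was measured in them, with solved counts of 48.6 in SNU449 control and 39 in resistant SNU449-Axl- cells. ELOVL2, an elongase of polyunsaturated fatty acids, was measured well in all groups, with values of 207, 269 and 222 against 77 to 101. ENPP2, the gene of autotaxin, which makes lysophosphatidic acid, had values of 83, 62 and 68 against 25 to 34. DSEL (51, 58 and 66 against 19 to 29), EVA1A (146, 107 and 105 against 23 to 62) and the mitochondrial protein gene LACTB (582, 550 and 729 against 164 to 353) completed the 15 genes with the largest gaps together with DNAJB11.

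DNAJB11, a cochaperone of the endoplasmic reticulum, had values of 402, 394 and 427 against 147 to 241. MANF and SDF2L1, both induced in the unfolded protein response, were private higher too, at 521, 556 and 593 against 231 to 412 and at 260, 256 and 344 against 106 to 186. DNAJB11 and MANF lie on chromosome 3, where 12.4% of the tested genes were private higher, and SDF2L1 lies on chromosome 22. HSPA5, the central chaperone of this response, was not private, at 3802, 2710 and 4673 against 2370 to 3396. In the list of the ATF4 and unfolded protein responses 2 of 34 members were called higher, 4 lower and 28 not, with a median difference of -0.12 that turned to 0.08 without replicate 3 of the population. The members called lower were SLC7A11, VLDLR and the serine synthesis genes PHGDH and PSPH. VLDLR was private. SLC7A11, PHGDH and PSPH were not, and PHGDH and PSPH lost their calls under several omissions and under spike-in centring, with adjusted p of up to 0.337 and 0.291.

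**Figure D1:**
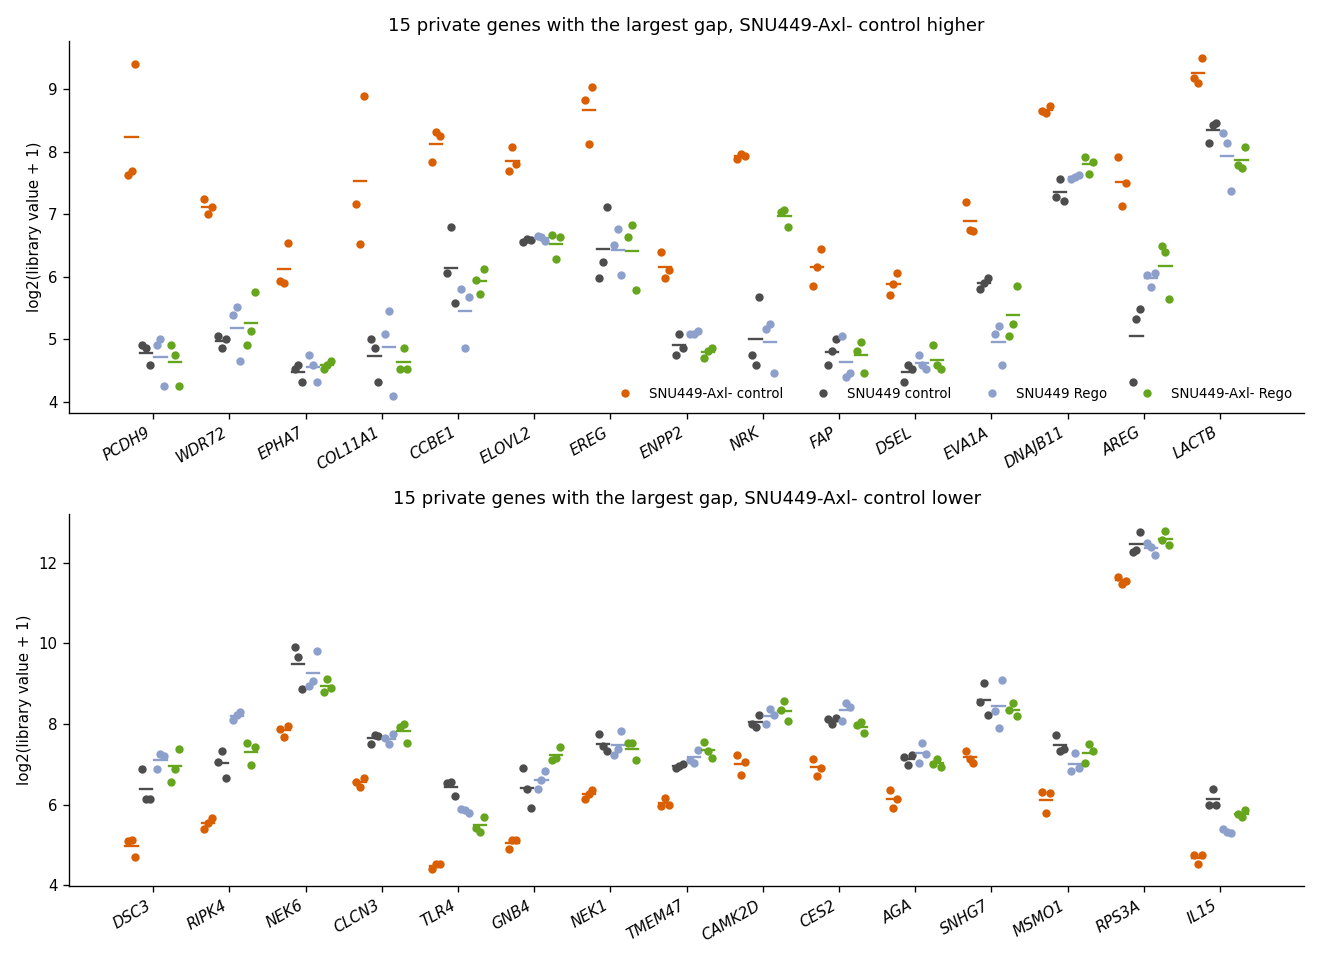
Library values of the 15 private genes with the largest gap in each direction, as log2(library value + 1), with 1 point per library, the mean of 3 libraries as a bar and the 4 groups in colour. All 3 SNU449-Axl- control libraries lie above the other 9 in the upper panel, from PCDH9 with values of 197, 207 and 676, and below them in the lower panel, from DSC3 with values of 33, 34 and 25.

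Among the private lower genes the largest gap was that of DSC3 (desmocollin 3), a desmosomal cadherin, on chromosome 18 at 30989365 to 31042815. Its values were 33, 34 and 25 in SNU449-Axl- control cells and 70 to 167 in all others, and the solved mean counts were 8.24 against 57.7, 109 and 113. RIPK4, a kinase of epithelial differentiation, had values of 41, 46 and 50. Resistant SNU449 cells had the highest RIPK4 values with 272, 296 and 316, and the other populations ranged from 100 to 185. TLR4, the receptor of lipopolysaccharide, on chromosome 9, was nearly without reads in the population at 20, 22 and 22. It had values of 39 to 93 in the other libraries, highest in SNU449 control cells. IL15, a cytokine of lymphocyte survival, on chromosome 4, had values of 26, 22 and 26 against 38 to 83. GNB4, a G protein beta subunit, had values of 29, 34 and 34 against 59 to 172 with the resistant SNU449-Axl- cells on top at 137, 141 and 172.

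NEK1 and CLCN3 are neighbours on chromosome 4, NEK1 from 169369704 to 169612632 on the minus strand and CLCN3 from 169612633 to 169723673 on the plus strand. NEK1, a kinase of cilia and DNA repair, had values of 69, 76 and 81 against 138 to 225. CLCN3, a chloride and proton exchanger of endosomes, had values of 93, 85 and 101 against 180 to 255. MSMO1, an enzyme of cholesterol synthesis, had values of 78, 54 and 77 against 114 to 211. It was the 1 member of 30 of the cholesterol and fatty acid synthesis list that was called lower, and none was called higher. CAMK2D, a calcium-dependent kinase, and AGA, a lysosomal enzyme, also lie on chromosome 4, with values of 150, 105 and 132 against 242 to 377 and of 81, 59 and 70 against 122 to 185. NEK6, a mitotic kinase on chromosome 9, had values of 236, 205 and 248 against 442 to 957. The lncRNA SNHG7, on the same chromosome, had values of 161, 140 and 130 against 238 to 544. RPS3A, a ribosomal protein gene on chromosome 4, had values of 3236, 2836 and 3018 against 4698 to 7127. Reads of RPS3A may be divided with its processed pseudogene copies, of which RPS3AP47 on chromosome 15 was private lower as well, so both values are uncertain. TMEM47 (61, 71 and 63 against 120 to 187) and the carboxylesterase gene CES2 (140, 104 and 120 against 220 to 369) lie on other chromosomes.

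Most private genes were separated by far less. The gap between the nearest libraries was 0.12 on the log2 scale at the median in both directions. It was 1 or more in 7 higher genes and 1 lower gene, and under 0.1 in 222 higher and 202 lower genes. Just inside the rule was DDX27, with 1389, 1290 and 1735 against a highest other value of 1289, and just outside it was BABAM1, with 480, 462 and 474 against a highest other value of 462. In the other direction ELP2, with 209, 188 and 206 against a lowest other value of 210, was just inside, and SAMHD1, with 129, 152 and 173 against 173, was just outside. The median difference from the mean of the other groups was 0.55 for the private higher and -0.56 for the private lower genes, and 40 and 35 of them exceeded 1 in size. Protein-coding genes made up 91.2% of the private higher and 89% of the private lower genes, against 79.1% of all genes, and their median mean normalised count was 151 and 107 against 57.1.

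The population nearest to the SNU449-Axl- control cells varied from gene to gene. The library closest to the private higher genes was one of resistant SNU449-Axl- cells in 193 genes, of SNU449 control cells in 173 and of resistant SNU449 cells in 146. For the private lower genes these numbers were 161, 143 and 150. The means of the other 3 groups spanned 0.284 (higher) and 0.282 (lower) at the median of the private genes, against 0.348 over all genes. The same rule applied to each other population gave 1128 private genes for SNU449 control, 916 for resistant SNU449 and 757 for resistant SNU449-Axl- cells, so that the number of 966 was not outside the range of the others. Gaps of 1 or more were found in 8 private genes of SNU449-Axl- control cells, in 35 of SNU449 control, 10 of resistant SNU449 and 16 of resistant SNU449-Axl- cells.

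In the limma fit 435 genes were higher (2.79%) and 413 were lower (2.65%) in SNU449-Axl- control cells than the mean of the other groups at an adjusted p under 0.05. Of these, 257 and 222 were private, which follows from the shared contrast. Without the replicate block 1008 genes were called higher and 933 lower. The share of higher genes among the calls was 51.3%, and 67.9% when the values were centred on the spike-in RNAs, with 510 higher and 241 lower. Compared with single groups, 1163 genes differed from SNU449 control, 872 from resistant SNU449 and 678 from resistant SNU449-Axl- cells. Only 45 genes were higher (0.288%) and 43 lower (0.276%) than each of the 3 groups, and all of them except the lower gene CLMN, named after its values were seen, were private. The number of calls rested on single libraries of the population: 224 genes were called without its replicate 2, 314 without its replicate 3 and 534 without its replicate 1.

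The private genes were spread unevenly over the chromosomes, a property the rule did not use. Of the 577 genes tested on chromosome 4, 100 were private lower (17.3%), and of the 600 on chromosome 9 it was 83 (13.8%), against the 2.91% of all genes. These 2 chromosomes held 183 of the 454 private lower genes. Among the nuclear chromosomes the private higher genes were most frequent on chromosome 3 with 108 of 873 (12.4%), and on the X chromosome with 37 of 511 (7.24%). Of the 35 mitochondrial genes 6 were private higher (17.1%), MT-ND1, MT-ND4L, MT-ND5, MT-ND6, MT-TP and MT-TQ. MT-ND1, a subunit of respiratory complex I, had values of 20232, 20752 and 15441 against 8219 to 14084. Private lower genes also reached 6.75% on chromosome 20, where 27 of 400 were found. Chromosome 3 had 2 private lower genes, PLXND1 and GNB4, and chromosome 9 had 3 private higher genes, FOXE1, C8G and FAM166B. On chromosome 4 EREG and AREG, ZFYVE28, LETM1 and a gene listed only by its identifier were the 5 private higher ones.

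**Figure D2:**
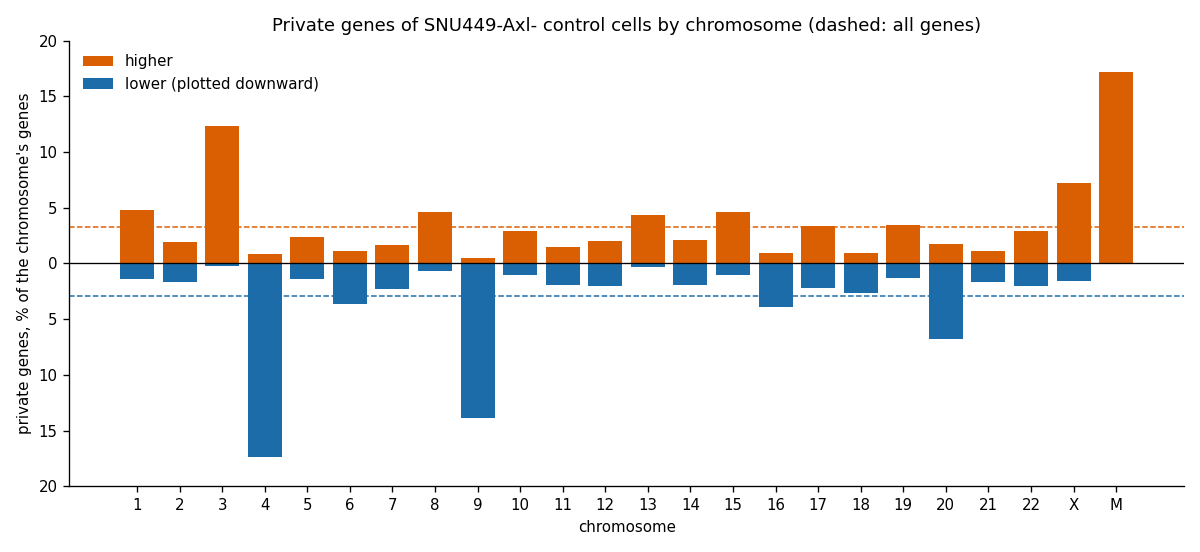
Private genes of SNU449-Axl- control cells on each chromosome, in % of the chromosome's tested genes, with the higher ones as bars upward and the lower ones downward, and the share over all genes as dashed lines. The lower genes reach 17.3% on chromosome 4 and 13.8% on chromosome 9. The higher genes reach 12.4% on chromosome 3 and 17.1% of the 35 mitochondrial genes (M).

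Over genes with a mean normalised count of at least 50, the median difference from the other groups was -0.35 on chromosome 4 (278 genes) and -0.38 on chromosome 9 (310 genes). It was 0.33 on chromosome 3 (471 genes) and 0.19 on the X chromosome (258 genes). Against SNU449 control, resistant SNU449 and resistant SNU449-Axl- cells the medians were 0.39, 0.44 and 0.16 on chromosome 3, so that the difference from the other Axl-deficient population was the smallest there. They were -0.39, -0.25 and -0.36 on chromosome 4, -0.41, -0.35 and -0.40 on chromosome 9 and 0.17, 0.21 and 0.19 on the X chromosome. The interquartile range was -0.56 to -0.13 on chromosome 4, -0.54 to -0.17 on chromosome 9 and 0.15 to 0.50 on chromosome 3, whereas it included 0 on the X chromosome with -0.04 to 0.36. Leaving out single libraries of the population moved these medians to -0.41 to -0.32, -0.42 to -0.33, 0.30 to 0.35 and 0.16 to 0.22 in the same order. Centring on the spike-in RNAs gave -0.29, -0.31, 0.39 and 0.25 and left 44, 51 and 69 private genes on chromosomes 4, 9 and 3.

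Within chromosome 4 the share of private lower genes was highest at 180 to 190 Mb with 12 of 36 genes (33.3%) and at 150 to 160 Mb with 10 of 34 (29.4%). In the second window all 11 genes with a mean count of at least 50 had a difference below 0, with a median of -0.80. On chromosome 9 the windows from 120 to 130 Mb and from 130 to 140 Mb held 23 of 118 and 20 of 105 private lower genes, and in the latter 59 of 60 well-measured genes lay below 0. The median differences in this window were -0.50 from SNU449 control, -0.41 from resistant SNU449 and -0.36 from resistant SNU449-Axl- cells, so that the population was lower than each other group there. Other stretches showed less. The median difference was -0.05 at 0 to 10 Mb of chromosome 4, with 14 genes above and 27 below 0. At 30 to 40 Mb of chromosome 9 it was -0.18 from SNU449 control, 0.05 from resistant SNU449 and -0.37 from resistant SNU449-Axl- cells. On chromosome 3 the difference from resistant SNU449-Axl- cells was 0.01 at 100 to 110 Mb, where it was 0.43 and 0.45 from the SNU449 groups. Private higher genes were dense on chromosome 1 at 170 to 180 Mb with 10 of 42 and on the X chromosome at 10 to 20 Mb with 8 of 38. The windows of chromosome 1 from 140 to 250 Mb had median differences of 0.10 to 0.33. At 30 to 40 Mb of chromosome 15 all 15 well-measured genes lay above 0, with a median of 0.49. At 10 to 20 Mb of chromosome 19 it was 100 of 109, with medians of 0.52, 0.08 and 0.49 from SNU449 control, resistant SNU449 and resistant SNU449-Axl- cells. Over the 264 windows with at least 20 genes the median share was 2.13% for the higher and 1.48% for the lower genes. No DNA measurement was analysed here, and the source of this distribution was not tested.

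**Figure D3:**
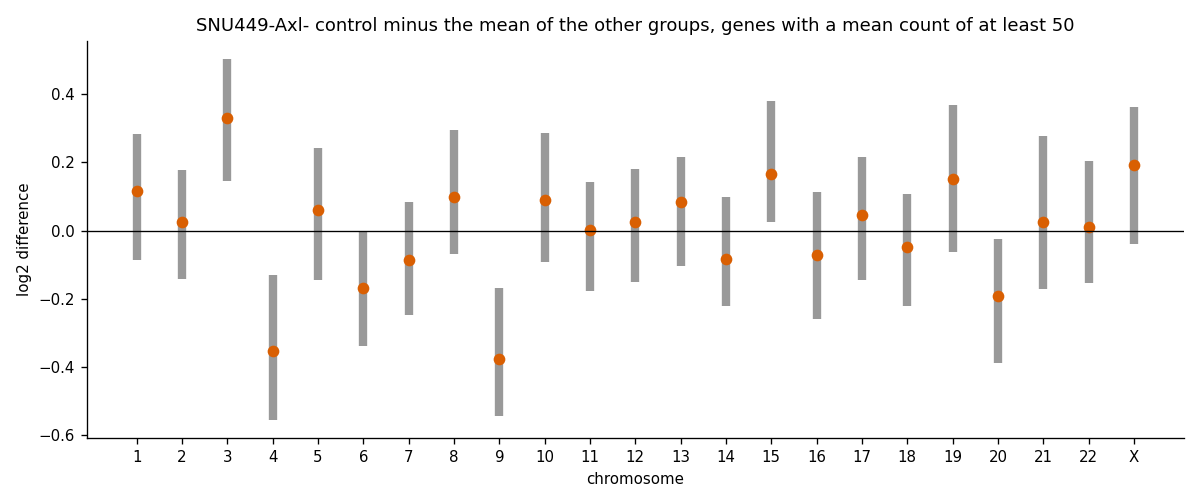
Difference between SNU449-Axl- control cells and the mean of the other groups by chromosome on the log2 scale, for genes with a mean normalised count of at least 50, with the median as a point and the interquartile range as a bar. Chromosomes 4 and 9 lie lowest with medians of -0.35 and -0.38, and chromosome 3 lies highest with 0.33.

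Of the pathway lists, 538 members were tested, and 48 were called higher and 33 lower in SNU449-Axl- control cells than the mean of the other groups, in all 15.1% of them, against 2.79% and 2.65% of all genes. The lists were chosen with earlier results of these data known, and 30 of the called members were private and thus chosen on this contrast, so nothing is read from the difference in these shares. The call of a private member, kept or lost, repeats the contrast of the rule and adds no support to it. Without replicate 2 of the population 34 list members were called, and 40 without its replicate 3, against 81 with all libraries. Whether these were among the 81 was not counted. A call against this mean does not say that the population differed from each group, and several of the largest differences had 1 other group at the same level. MMP7, a matrix metalloproteinase gene, had values of 45, 44 and 67 in SNU449-Axl- control and 57, 45 and 30 in SNU449 control cells, but 447 to 680 in resistant SNU449 and 2346 to 3652 in resistant SNU449-Axl- cells (difference -2.95 ± 0.213, adjusted p = 3.32e-07). Both control populations were thus low and overlapped. LAMA4, a laminin chain gene, had values of 329, 332 and 309 in SNU449-Axl- control cells, 409 to 666 in SNU449 control cells and 21 to 38 in all resistant cells (2.13 ± 0.19, adjusted p = 3.65e-06).

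**Figure D4:**
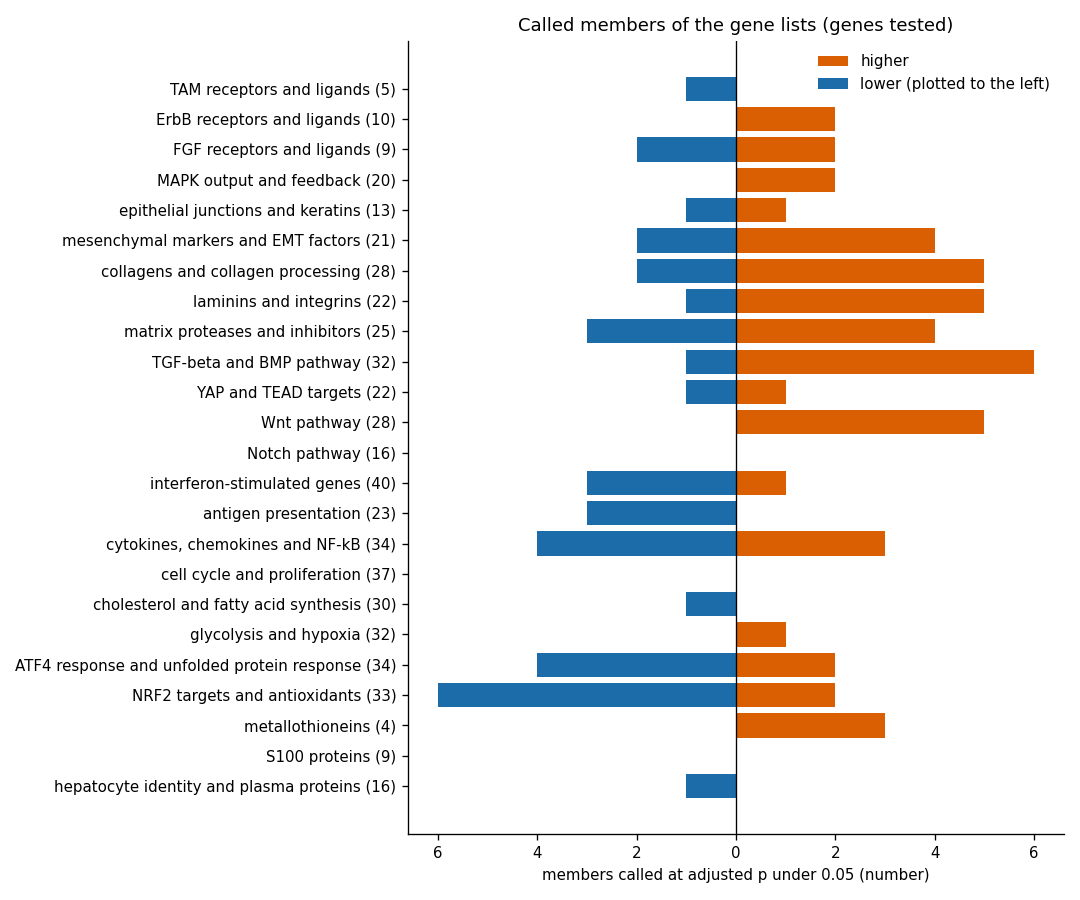
Members of each gene list that were called higher (bars to the right) or lower (bars to the left) in SNU449-Axl- control cells than the mean of the other groups at an adjusted p under 0.05, with the number of tested genes in parentheses. The TGF-beta and BMP list has 6 higher members and the NRF2 list 6 lower ones.

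Of 28 collagens and collagen-processing genes, 5 were higher, 2 were lower and 21 were not called, with a median difference of 0.20, which was 0.07 without replicate 2 and 0.31 without replicate 1 of the population. COL6A1, a chain of microfibrillar collagen VI, had values of 776, 600 and 477. It was at 448 to 553 in resistant SNU449-Axl- cells and 145 to 219 in the SNU449 populations (1.26 ± 0.176, adjusted p = 0.000418), so that both Axl-deficient populations were high. PLOD2 and P3H2 on chromosome 3, which hydroxylate collagen, were private higher, at 720, 715 and 751 against 253 to 484 and at 729, 577 and 544 against 174 to 441. COL1A1, the main chain of collagen I, had values of 498, 2102 and 2380 against 44 to 878 (2.37 ± 0.498, adjusted p = 0.00952). Replicate 1 stood apart within the population, and the call was lost without replicate 2 or replicate 3, with adjusted p of up to 0.142. COL18A1 fell, at 400, 516 and 416 against 475 to 1475 (-1.14 ± 0.191, adjusted p = 0.00178), with SNU449 control replicate 2 overlapping.

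Of 22 laminins and integrins, 5 were higher and 1 was lower. ITGA5, the alpha chain of the fibronectin receptor, had values of 105, 101 and 77 in SNU449-Axl- control, 65 to 81 in SNU449 control, 38 to 43 in resistant SNU449 and 19 to 24 in resistant SNU449-Axl- cells (1.20 ± 0.159, adjusted p = 0.000238). The values of both control populations overlapped at their edge. LAMB3 was private higher at 99, 125 and 129 against 49 to 90. Of 25 matrix proteases and inhibitors, 4 were higher and 3 lower. ADAM19, a membrane-anchored metalloproteinase gene, had values of 318, 889 and 1133 against 96 to 376 (2.02 ± 0.318, adjusted p = 0.00114), with replicate 1 within the range of SNU449 control cells. SERPINE2, an inhibitor of serine proteases, had values of 4821, 5261 and 5215, close to the 2886 to 5375 of resistant SNU449-Axl- cells and above the 914 to 2905 of the SNU449 populations (1.36 ± 0.22, adjusted p = 0.00149).

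Of 21 mesenchymal markers and EMT factors, 4 were higher, 2 were lower and 15 were not called. The higher ones were COL1A1, FAP and the transcription factors SNAI2 and SNAI1, and the lower ones were COL1A2 and FN1. SNAI2 was private with low values of 66, 71 and 79 against 31 to 54, and SNAI1 had 41, 56 and 70 against 27 to 42. FN1, the gene of fibronectin, had values of 559, 377 and 463 in SNU449-Axl- control cells and 336 to 650 in resistant SNU449 cells, but 1351 to 4850 in the other groups (-1.57 ± 0.298, adjusted p = 0.00461). The call was lost without replicate 2 of the population (adjusted p = 0.0805), as were those of COL1A1, SNAI1, COL1A2 and SNAI2. Over all omissions the adjusted p reached 0.201 for SNAI1 and 0.248 for COL1A2, which also lost its call under spike-in centring. Of 13 epithelial genes, 1 was higher (KRT81) and 1 was lower (DSP). KRT81 values of 754, 1449 and 1109 were in the range of both resistant populations at 690 to 1848, while SNU449 control cells had 21 to 55. DSP was high in resistant SNU449-Axl- cells alone, at 203 to 237, and at 22 to 50 in the 9 other libraries. Without replicate 2 of the population both calls were lost (adjusted p of up to 0.11 for KRT81 and 0.0529 for DSP).

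In the TGF-beta and BMP list 6 of 32 members were higher and 1 was lower, with a median of 0.13 that was -0.00 without replicate 2 of the population. BMP4, a ligand, had values of 453, 325 and 304 against 93 to 335 (1.12 ± 0.225, adjusted p = 0.00685, 0.0684 without replicate 1 of the population). Resistant SNU449 cells overlapped with it at 192, 335 and 227, and the difference from them was 0.54 ± 0.275 (limma adjusted p = 0.278). ID3, a target of BMP signalling, had values of 420, 519 and 324 against 86 to 501, with resistant SNU449 cells overlapping. INHBB, an activin subunit, was low in both control populations at 24 to 64 and at 126 to 279 in both resistant populations. The call of ID3 was lost without replicate 2 of the population (adjusted p = 0.142) and that of INHBB without its replicate 3 (adjusted p = 0.0634). In the Wnt list 5 of 28 members were higher and none was lower. WNT5A, a ligand of noncanonical Wnt signalling, had values of 475, 369 and 392 in SNU449-Axl- control and 428 to 755 in SNU449 control cells against 72 to 141 in resistant cells (1.10 ± 0.205, adjusted p = 0.00428). None of BMP4, ID3, INHBB and WNT5A separated the population from every other group.

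Of 20 genes of MAPK output and feedback, 2 were called higher and 18 were not called, with 15 differences above 0 and a median of 0.24, which was 0.01 without replicate 3 of the population. ETV5, a transcription factor induced by this pathway, lies on chromosome 3 and was private with values of 127, 146 and 123 against 53 to 88. EPHA4 had values of 70, 75 and 84 against 26 to 71, and its call was lost without 6 of the libraries in turn (adjusted p of up to 0.164). DUSP6, a phosphatase of the feedback, had values of 176, 98 and 117 against 46 to 121 and was not called. Of 9 FGF receptors and ligands, FGF1 and FGFR1 were higher and FGFR4 and FGF2 were lower. FGF2 on chromosome 4 was private lower at 423, 410 and 411 against 509 to 703. FGFR1 values of 1385, 1031 and 1096 were like the 1226 to 1863 of resistant SNU449-Axl- cells and above the 434 to 699 of the SNU449 populations. All 4 calls were lost without replicate 2 of the population and likewise without its replicate 3, with adjusted p of up to 0.22 for FGFR1 and 0.228 for FGFR4. FGF1 and FGF2 were private.

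HLA-B and HLA-C, whose products present peptides to T cells, were private lower. HLA-B had values of 260, 241 and 186 against 329 to 718, and HLA-C had 788, 768 and 858 against 1004 to 1693. These genes are similar in sequence, and how their reads were divided may affect each value. Of 23 antigen presentation genes 3 were called lower, HLA-B and HLA-C among them, none was called higher, and the median difference was -0.26. Of 40 interferon-stimulated genes, 3 were lower, 1 was higher and 36 were not called, with 9 differences above 0 and a median of -0.34, which was -0.15 without replicate 2 of the population. IFI44 was private lower at 38, 20 and 28 against 48 to 113. DDX60 on chromosome 4 was private lower too, at 41, 33 and 47 against 49 to 102, and the related gene DDX60L, on the same chromosome, had 60, 55 and 79 against 63 to 141. IFIH1, the RNA sensor MDA5, was private in the opposite direction with 236, 220 and 295 against 106 to 182. The calls of HLA-C, IFI44, DDX60 and DDX60L were lost without replicate 2 of the population, and that of DDX60L, which was not private, reached an adjusted p of 0.318 over all omissions.

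Among cytokines and NF-kB genes 3 of 34 were higher and 4 were lower. VCAM1, an adhesion molecule for leukocytes, had values of 58, 33 and 38 in SNU449-Axl- control and 38 to 68 in resistant SNU449 cells. It reached 550, 556 and 1886 in SNU449 control and 90 to 197 in resistant SNU449-Axl- cells (-2.09 ± 0.325, adjusted p = 0.00102). IL18 had values of 362, 287 and 277, overlapping the 298 to 411 of the resistant SNU449-Axl- cells and above 97 to 118 in the SNU449 populations (0.95 ± 0.158, adjusted p = 0.00172).

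Of 33 NRF2 targets and antioxidant genes, 6 were lower, 2 were higher and 25 were not called, with a median difference of -0.35, which was -0.21 without replicate 2 of the population. AKR1C3, an aldo-keto reductase, was private lower at 2085, 2229 and 2237. It was close in resistant SNU449 cells at 2685 to 2840 and far higher in the remaining groups at 4264 to 10522. AKR1B10, of the same enzyme family, was private lower at 103, 60 and 91 against 110 to 139 in the SNU449 populations and 650 to 1395 in resistant SNU449-Axl- cells. TXN, the gene of thioredoxin, on chromosome 9, had values of 2226, 1627 and 1437 against 2169 to 5131 (-1.10 ± 0.194, adjusted p = 0.00261). The higher members were AKR1B1, at 862, 760 and 811 against 333 to 572, and KEAP1, the inhibitor of NRF2, at 242, 231 and 187 against 113 to 175. Both were private, and both calls were lost without replicate 2 of the population. SLC7A11, the cystine transporter on chromosome 4, had values of 526, 339 and 257 against 380 to 1368, and its call was lost without 3 libraries in turn (adjusted p of up to 0.212).

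Of 4 tested metallothioneins, which bind zinc and copper, 3 were higher. MT2A was private at 10284, 16734 and 16555 against 4809 to 10177. MT1E had values of 2129, 3094 and 5168 against 485 to 2257. MT1F had 48, 43 and 43, like the 44, 49 and 40 of resistant SNU449-Axl- cells. It was almost without reads in the SNU449 populations at 19 to 28. All 3 calls were lost without replicate 2 or 3 of the population, with adjusted p of up to 0.237 for MT1E, and the genes are similar in sequence. No member of the cell cycle list was called among 37, although 26 differences were above 0 with a median of 0.30, which was 0.14 without replicate 2 of the population. In the Notch list with 16 and the S100 list with 9 genes no member was called either. Of 22 YAP and TEAD targets, NT5E was private higher at 254, 257 and 418 against 56 to 238, and AXL was lower. Of 32 glycolysis and hypoxia genes, SLC2A3 was called higher, and of 16 hepatocyte genes, RBP4 was called lower, each with the call lost when single libraries were left out. None of the 3 haematopoietic genes and not the 1 endothelial gene tested was called. That endothelial gene was private lower, with a difference of -0.48.

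**Figure D5:**
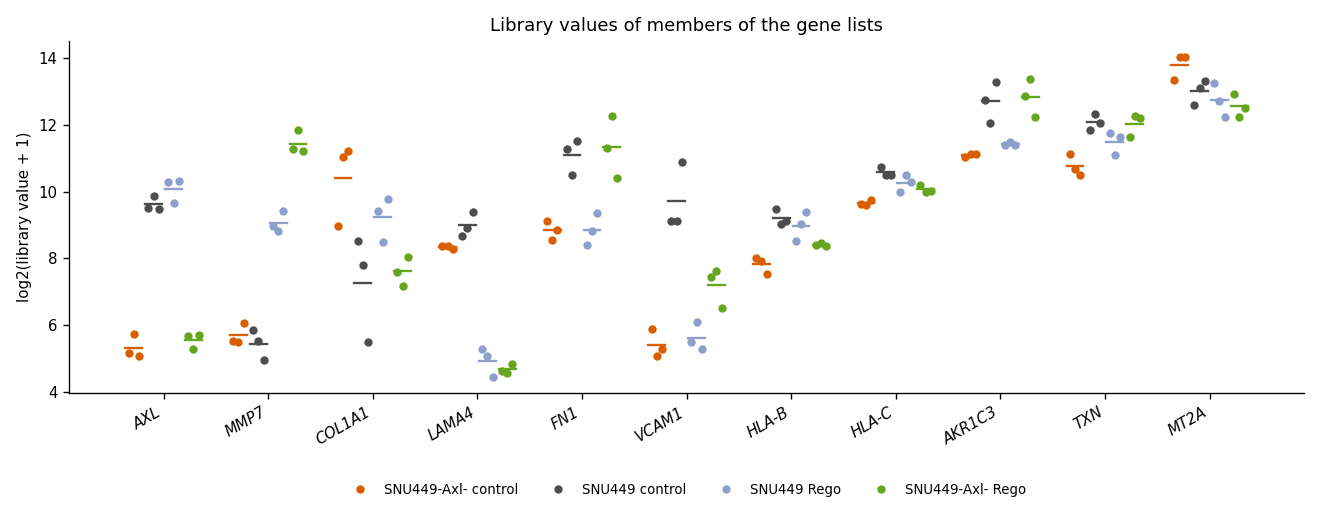
Library values of AXL and of 10 other members of the gene lists as log2(library value + 1), with 1 point per library and the mean of 3 libraries as a bar. AXL is low in both Axl-deficient groups, MMP7 and LAMA4 separate control from resistant cells, and HLA-B and HLA-C are lowest in SNU449-Axl- control cells, with HLA-B at 260, 241 and 186 against 329 to 718.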

How the data were processed

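RNA of 12 libraries was analysed. The authors trimmed reads with cutadapt 4.0, aligned them to GRCh38 with the GENCODE release 40 annotation using STAR 2.5.3a, counted reads per gene, left out genes with low counts and normalised the counts in DESeq2, where the design took account of the date of preparation. The deposited library values are a rounded, batch-corrected score on a linear scale and are not counts, so no count test was run on them. The deposited mean normalised counts are a signal over several libraries. Group means of these counts were solved from 7 such means. Put together again, they missed the deposited means by 0.392% at the median, over the 12878 genes in all 7. This is the misfit of the solution and not the error of a group mean, which is not known. AXL, for example, was solved as 0.694 in SNU449-Axl- control and 33.8 in resistant SNU449-Axl- cells, whose library values overlapped. Fold changes and p-values in the deposited tables were not used.

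Values were transformed as log2(value + 1), with a pseudocount of 1. The 32 spike-in rows were left out, which left 15601 genes. limma 3.58.1 (R 4.3.3) fitted the 4 group means with the replicate number as a block, and p-values were adjusted over all genes by the Benjamini-Hochberg method at 0.05, with 6 residual degrees of freedom. The labels used here give no preparation date per library, so it is an assumption that the block stands for the preparation. The library values were centred along the replicate number. The mean deviation of libraries with the same number was 0.00124 to 0.00127, against 0.122 for a single library. Correlations of the deviations of same-numbered libraries were -0.548 to 0.0752 over 18 pairs. The rule for private genes used these same corrected values, so the libraries it compared were not independent. How the correction changed the number of private genes was not tested. The fit was checked on simulated data. No 2 libraries were duplicates, with identical values in at most 5.44% of genes.

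Genes named are the 15 private genes with the largest gap in each direction, the TAM genes, up to 4 called members in each direction of each list, and the genes next to the threshold. Receptors, DUSP6, HSPA5 and exceptions by chromosome were named after their values were seen. The members and the lists were chosen with earlier results of these data known. Positions are those of the deposited tables, in windows of 10 Mb. Promoters were read from RefSeq (GRCh38.p14) over 250 bases. Alternatives were other scalings, no pseudocount, a minimum mean count of 50, the other table over all libraries, no block, no trend and each library left out. One item is not reported here.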

Additional observations from a re-analysis of the deposited data

How the results depend on the processing

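The depth of the libraries is unknown, and each group is 1 population in technical triplicate, which limits every p-value to the spread between libraries. Without the replicate block, 1941 genes were called, 1008 higher and 933 lower, with 142 and 116 that were higher or lower than each other group and 133 list members, and no call of a named list gene was lost. The 848 calls of the fit with the block were all among the 1941. Centring on the spike-in RNAs, which moved the median of all genes from -0.00 to 0.06, left 245 private lower genes, 69, 44 and 51 private genes on chromosomes 3 (higher), 4 and 9 (lower), 241 genes called lower and 22 lower than each group. A gap of at least 0.2 left 142 higher and 131 lower private genes, with 34, 12, 34 and 24 on chromosomes 3, X, 4 and 9. AXL had an adjusted p under 0.05 and the same sign in every alternative. Under the other alternatives that keep the libraries, counts of private genes, calls and list members in all were within 1.5 times those reported. This does not cover the counts of single lists. A minimum mean count of 50 leaves out called members such as EPHA4 (26.7), IFI44 (29.5), SNAI1 (11.9) and SNAI2 (21.7).

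With single libraries left out, private genes numbered 546 to 876 (higher) and 483 to 801 (lower), and 111 to 159, 38 to 56, 101 to 138 and 84 to 124 on chromosomes 3, X, 4 and 9. Fewer libraries make this rule easier to meet, and the numbers over all chromosomes exceeded 1.5 times those reported without replicate 1 (876 and 801) or replicate 3 (849 and 777) of SNU449-Axl- control cells. The genes called numbered 224 to 1087, 121 to 537 higher and 103 to 550 lower, those beyond each group 16 to 56 and 12 to 62, and list members 34 to 92, each lowest without replicate 2 of SNU449-Axl- control cells and highest without replicate 3 of SNU449 control cells. The AXL difference was -3.37 to -2.92. TYRO3, never called, was at 0.0299 with spike-in centring and at -0.25 to 0.16 with libraries left out, and PROS1 at -0.0395 to 0.11. The cause of these changes was not tested. Of the values of 72 tested genes 199 lost and 1147 kept their call or lack of it, and 5 turned. Of those of the 30 named private genes 493 moved by less than 1 SD of the 3 libraries and 9 by more, and none turned.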
